A study of Oryza sativa with 51 samples.

Results

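The severe drought comparison of histone H2B monoubiquitination (H2Bub1) in rice covered 886 regions of the genome, and every region listed in the authors' deposited table was taken. The 2 deposited tables of the line Zhonghua11 together list 2281 regions, the other 1395 being from moderate drought. The plants of this comparison were wild type Zhonghua11, a japonica rice line, sampled at the 4-leaf stage. Other samples of the series, osbzip46 mutant and wild type plants under drought, enter only through a deposited gene list described at the end. Normally watered plants were set against plants under slowly developed severe drought, where relative soil water was about 10%. The deposited values combine 3 H2Bub1 libraries per condition into 1 log2 concentration, so no spread between H2Bub1 libraries can be given. The RNA of the same line was measured in 3 libraries each under normal water, moderate drought (about 20% relative soil water) and severe drought. The labels name no tissue for these samples and do not say whether replicates came from separate plants, so the spread behind each p-value is that of these libraries and may be technical.

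In H2Bub1 a single ubiquitin is joined to the tail of histone H2B in chromatin. In plants the mark is set by a pair of RING ubiquitin ligases, HUB1 and HUB2, and is removed by deubiquitinating proteases. It lies mainly over the bodies of transcribed genes, where it accompanies elongation by RNA polymerase II. In rice its study in drought centres on the signalling of the hormone abscisic acid (ABA), in which receptors, PP2C phosphatases, SAPK kinases and bZIP transcription factors act in sequence.

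Each region was 500 bases long. Every listed region had a false discovery rate (FDR, the authors') of at most 0.0499 and a difference of at least 1 between the log2 concentrations, so the table holds what passed both limits and not every region measured. That FDR may follow the Benjamini-Hochberg procedure, and the first region may have the smallest p-value of all tested, listed or not. If both hold, the FDR and p-value of that region imply about 12500 regions tested, of which the listed ones are 7.09%. The last FDR then implies about 3830 regions under the same FDR limit, most of them left out for a smaller difference. The last regions by FDR, both at 0.0499, were at chromosome 5, 24565074 to 24565573 (change of −1.80) and chromosome 3, 6363278 to 6363777 (change of −1.0). Coordinates are those of the files, with a genome build not given in the sources used here. How the libraries were scaled to each other is not stated either, and the split between higher and lower regions depends on it. The changes themselves chose the regions, so they are described without a test.

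Loss of the mark prevailed among the listed regions. H2Bub1 was lower in severe drought in 793 of 886 regions (89.5%) and higher in 93. The losses were mostly moderate, with a median change of −1.24 (log2, quartiles −1.55 and −1.09), and 575 of the 793 lay between −1 and −1.5. Gains were fewer and wider, with a median of 1.88 (quartiles 1.35 and 3.24), and 41 of the 93 reached 2 or more. Among lower regions 97 lost 2 or more.

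Higher and lower regions began at different levels. Under normal water the lower regions had a median log2 concentration of 7.0 (range 5.02 to 9.47), and the higher regions one of 4.50 (range −0.06 to 6.05). In 61 of the 93 higher regions the normal level lay below that of every lower region. Under severe drought the higher regions lay in a narrow range of 5.56 to 7.12. A region weak under normal water can pass the limits of the table only where its drought level is high. The starting levels and this range are therefore not separate from how the table was made. The lower regions then spread from −0.31 to 8.40 with a median of 5.76.

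**Figure D1:**
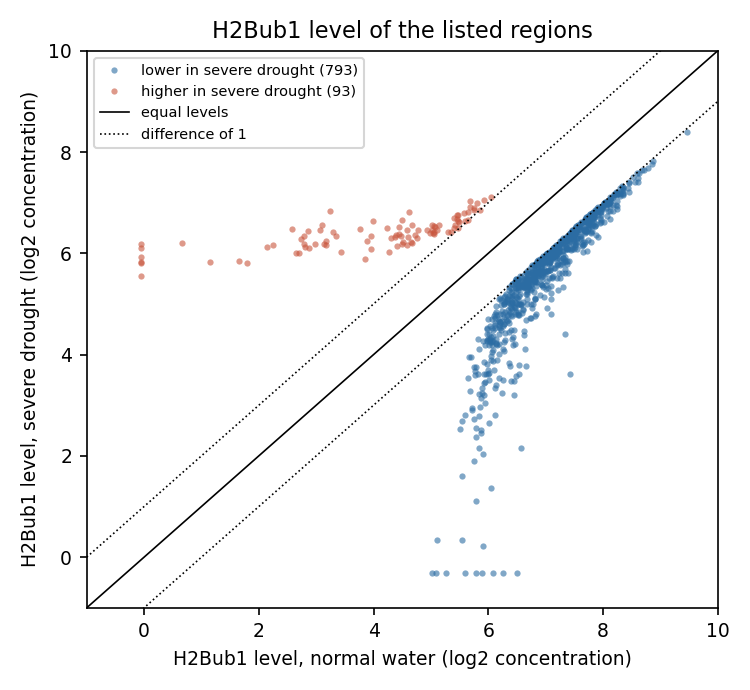
Each point is 1 of the 886 regions, with its H2Bub1 log2 concentration under normal water on the x axis and under severe drought on the y axis; the solid line marks equal levels and the dotted lines a difference of 1. The 793 lower regions fan out downwards as their normal level decreases to about 5.02, and the 93 higher regions form a flat band between 5.56 and 7.12.

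The size of a loss went with the starting level. Regions with a normal level of 8 to 10 lost a median of 1.09 (change of −1.09) and at most 1.44 (change of −1.44). The 322 regions at 7 to 8 had a median change of −1.14, and the 339 lower regions at 6 to 7 one of −1.36. The 60 lower regions at 5 to 6 had a median of −2.62. All 61 listed regions with a normal level of 5 or less were higher in drought. A table limited to regions past an FDR can hold weak regions only where their change is large, so this relation is not separate from how the table was made.

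A small group of regions reached the bottom of the scale. The lowest drought value of the table, −0.31, was shared by 9 lower regions, and the lowest normal value, −0.06, by 6 higher regions. Their changes are therefore set by that lowest value and give only the order of the regions by their other level. The lowest changes were −6.81 at chromosome 9, 16091427 to 16091926 (upstream of LOC_Os09g26570), −6.56 at chromosome 2, 34870701 to 34871200 (LOC_Os02g56880) and −6.39 at chromosome 9, 12581278 to 12581777 (LOC_Os09g20900). They were followed by −6.20 at LOC_Os03g17840 (chromosome 3, 9936075 to 9936574), −6.10 at LOC_Os01g45840 (chromosome 1, 26039256 to 26039755) and −5.90 at LOC_Os06g48750 (chromosome 6, 29509443 to 29509942). All 6 lay 1 to 3 kb from a gene start by the authors' annotation. The region of LOC_Os06g48750 was also upstream of its gene. That of LOC_Os01g45840 began 2614 bases from the start, past the end of a model of 2517 bases.

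The highest changes were 6.24 at LOC_Os07g48550 (chromosome 7, 29041084 to 29041583) and 6.16 at LOC_Os03g10620 (chromosome 3, 5423109 to 5423608). A pair of regions near LOC_Os04g47770 followed, with 5.99 at chromosome 4, 28339195 to 28339694 and 5.88 at 28336998 to 28337497. LOC_Os03g30950 (chromosome 3, 17623944 to 17624443) had 5.87, and a region downstream of LOC_Os05g30120 (chromosome 5, 17433215 to 17433714) had 5.62. The region with the smallest FDR, 1.35e-14, singled out after its value was seen, was a loss at chromosome 9, 16085820 to 16086319. It lay upstream of LOC_Os09g26560 and went from 7.34 to 4.40.

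At the top of the scale the changes were small. The strongest normal level, 9.47, was at the start of LOC_Os01g35789 (chromosome 1, 19824409 to 19824908) and went to 8.40. LOC_Os08g20544 (chromosome 8, 12339513 to 12340012) went from 8.87 to 7.83, and LOC_Os10g35010 (chromosome 10, 18678014 to 18678513) from 8.86 to 7.77.

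The regions lay inside genes rather than before them. The authors' annotation put 763 of 886 regions (86.1%) in a promoter class, which covers up to 3 kb on either side of a gene start. Of these 763, 683 (89.5%) began downstream of the start, and 673 had their centre inside the gene model. Over all regions 783 began downstream of the start, 21 overlapped it and 82 lay upstream. Among the 742 regions centred inside their gene model, the centre stood at a median of 36.1% of the model's length (quartiles 25.5 and 46.6), and 596 stood before its midpoint. A further 63 regions were annotated to exons and 26 to introns, all 89 more than 3 kb from the start, because nearer regions take the promoter class. Distal intergenic, downstream and 3′ UTR classes held 34 regions.

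Gains lay closer to gene starts than losses. The signed distance from the gene start, negative for upstream regions, had a median of 486 bases in higher regions (quartiles 183 and 961). In lower regions it was 1421 bases (quartiles 835 and 2113). By the authors' class within 1 kb on either side of a start, the shares were 72.0% of higher and 25.2% of lower regions. Of the higher regions, 59 of 93 (63.4%) began 1 to 1000 bases downstream of the start, against 165 of 793 lower regions (20.8%). In the next stretch, over 1000 and up to 3000 bases downstream, the shares were 16.1% and 56.0%. The gene models also differed in length, with a median of 2928 bases for higher regions and 4551 bases for lower regions. Relative to model length, regions centred inside a model stood at a median of 32.7% for gains (quartiles 16.1 and 49.3) and 36.4% for losses (quartiles 26.0 and 46.4). Size of loss varied little with position, from a median change of −1.17 at over 500 and up to 1000 bases to −1.35 beyond 3000 bases. Both groups were chosen by their change, and regions of 1 gene share their libraries, so no test of this difference was made.

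**Figure D2:**
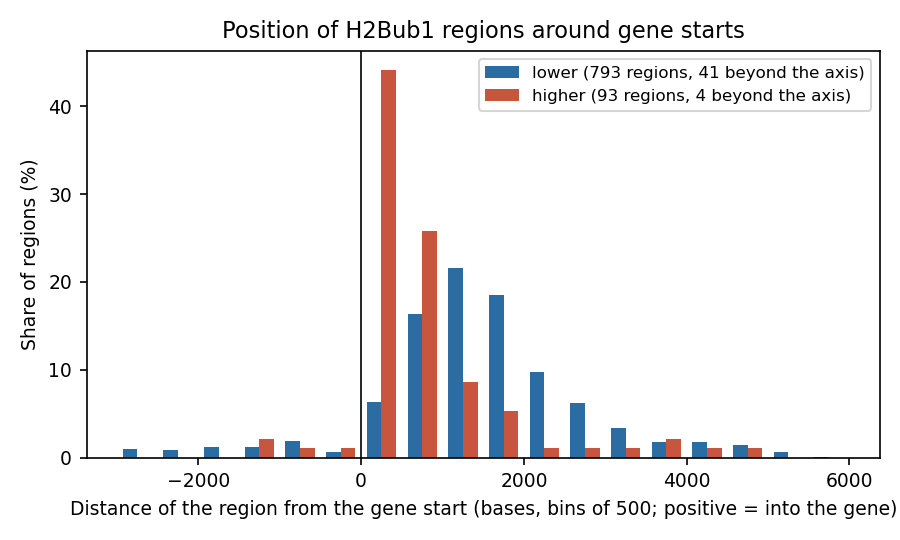
Share of regions (y axis, % of each direction) by distance of the region from the gene start (x axis, bases in bins of 500, positive values into the gene; the bin from 0 also holds regions that overlap the start). Higher regions peak in the first bin after the start, while lower regions peak between 1000 and 2000 bases.

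All 12 chromosomes held lower and higher regions. Chromosomes 1, 2 and 3, with 140, 116 and 131 regions, together held 43.7% of them. Set against the number of genes with measurable RNA, regions were densest on chromosome 9, with 51.8 per 1000 such genes, and sparsest on chromosome 11, with 31.2. The share of higher regions ran from 7.63% on chromosome 3 to 16.4% on chromosome 12, where it rests on 9 of 55 regions. The median loss varied little between chromosomes, from −1.16 on chromosome 10 to −1.35 on chromosome 7.

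The 886 regions were assigned to 869 genes, of which 780 had a lower region, 90 a higher region and 1 both. Only 16 genes had more than 1 region. LOC_Os09g06464 on chromosome 9 had 3, all in its single intron. The region at 3052479 to 3052978 went from 5.67 to 3.96, while those at 3057425 to 3057924 and 3059431 to 3059930 went from 5.69 to 6.91 and from 5.29 to 6.43. Across the genome 51 neighbouring pairs of regions lay within 10 kb of each other, of which 17 belonged to the same gene.

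RNA from the same conditions was a readout that the H2Bub1 table did not use. RNA levels are given in TPM (transcripts per 1000000, scaled for transcript length), and changes as log2 fold changes of TPM + 1, fitted with limma over 20642 genes and all 9 RNA libraries. A gene rose or fell where its adjusted p was under 0.05. Severe replicate 3 was unlike the rest: its highest correlation with another library was 0.955, while normal and moderate libraries correlated at 0.989 or more within their group. The RNA libraries implied 8.30 to 10.7 Gb of aligned bases. Of the 869 region genes, 829 passed the expression filter, 748 with a lower region and 82 with a higher region.

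Among genes that gained H2Bub1, the share that rose in RNA lay above that of all tested genes. The shares are given as a description, with no test of their difference. Of the 82 tested genes with a higher region, 49 rose (59.8%, against 42.1% of all tested genes) and 10 fell (12.2%, against 20.6%). By at least 1 on the log2 scale 22 rose (26.8%, against 13.8%) and 3 fell (3.66%, against 7.93%). Their median log2 fold change was 0.42, or 0.20 above the median of all tested genes, which was itself 0.22.

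Among genes that lost H2Bub1, the share that rose lay below that of all tested genes and the share that fell lay above it. Of the 748 tested genes with a lower region, 231 rose (30.9%, against 42.1%), 218 fell (29.1%, against 20.6%) and 299 were not called. Their median was 0.04, or −0.18 relative to all tested genes. Changes of at least 1 were less common than in the background for rises, with 48 genes (6.42%, against 13.8%), and near it for falls, with 70 genes (9.36%, against 7.93%). After quantile normalization, which centres all genes near 0, 131 of these genes rose and 321 fell, against 28.6% and 30.6% of all tested genes, and 34 and 14 of the genes with a higher region. Without severe replicate 3 the counts were 259 and 242 for lower regions and 52 and 11 for higher regions, where 44.4% of all tested genes rose and 22.5% fell. The RNA level under normal water differed between the sets, with a median of 17.4 TPM for genes with a lower region, 10.4 TPM for those with a higher region and 11.7 TPM for all tested genes, and the part of this difference in the counts was not tested.

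**Figure D3:**
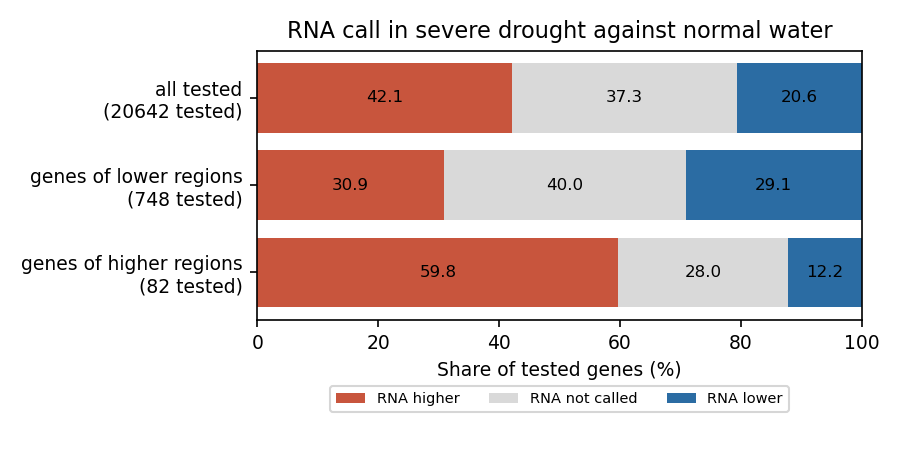
Share of tested genes (x axis, %) whose RNA was called higher, not called or called lower in severe drought against normal water, for all 20642 tested genes, 748 genes with a lower H2Bub1 region and 82 genes with a higher region. The red part is widest for genes with a higher region (59.8%) and narrowest for genes with a lower region (30.9%).

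Region by region the relation of mark and RNA depended on which regions were pooled. Across all 845 regions with tested RNA, which joins gains and losses, Pearson's r between the H2Bub1 change and the RNA log2 fold change was 0.22 and Spearman's rho 0.15. Across 760 lower regions both were 0.06, and across 85 higher regions they were 0.12 and 0.03. These points share libraries, so the values are descriptions. The shares differed most at the strongest losses. Of 27 tested regions that lost more than 3, 15 had a gene that fell (55.6%) and 6 a gene that rose (22.2%). Of 391 regions with losses up to 1.25, 99 had a gene that fell (25.3%) and 131 one that rose (33.5%). Between these ends the shares did not follow the size of the loss step by step. A gene fell in 27.0% of 63 regions with losses of 2 to 3, and one rose in 20.6%. At losses of 1.5 to 2 the shares were 29.7% and 30.6% of 111 regions, and at 1.25 to 1.5 they were 35.1% and 28.6% of 168. Among all tested genes 20.6% fell and 42.1% rose. The strongest losses include the regions at the lowest drought value, and some lay outside the gene model they were paired with. Between the H2Bub1 level and log2(TPM + 1), both under normal water, r was 0.34 and rho 0.35 over the lower regions, and −0.06 and 0.02 over the higher regions.

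The largest RNA rises among region genes came with gains and with losses of the mark. The 6 rises and 6 falls described were picked among genes whose severe and normal libraries did not overlap, so that separation is part of the choice. LOC_Os03g30950, whose region gained 5.87, had 3.42, 2.77 and 2.1 TPM in the normal libraries and 27.6, 18.8 and 58.4 TPM in the severe ones. It rose by 3.12 ± 0.40 (SE, log2). LOC_Os11g15040 (chromosome 11, 8467570 to 8468069, H2Bub1 change of 1.97) had 14.8, 9.79 and 8.99 TPM under normal water and 79.2, 61.8 and 87.4 TPM in severe drought, a rise of 2.68 ± 0.21. LOC_Os06g16290 (chromosome 6, 9283082 to 9283581, change of 3.56) had 14.2, 15.7 and 18.6 TPM against 115, 117 and 68.0 TPM, a rise of 2.53 ± 0.22. In all 3 genes the region began within 1 kb of the gene start.

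LOC_Os01g64300 (chromosome 1, 37324108 to 37324607, change of 3.44) had 1.75, 1.41 and 2.55 TPM under normal water and 12.4, 8.97 and 25.9 TPM in severe drought, a rise of 2.42 ± 0.33. LOC_Os01g32780 (chromosome 1, 17992405 to 17992904) rose from 23.9, 27.8 and 37.6 TPM to 153, 123 and 455 TPM, by 2.77 ± 0.44, although its region lost 2.60. The highest value of both genes was in severe replicate 3. The sixth gene, LOC_Os02g52780, is described with the ABA genes.

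Of the genes with the highest H2Bub1 changes, LOC_Os03g10620 rose from 52.6, 59.8 and 54.2 TPM to 198, 196 and 321 TPM, by 2.04 ± 0.18, and LOC_Os07g48550 from 26.0, 28.7 and 37.2 TPM to 79.8, 83.5 and 110.2 TPM, by 1.54 ± 0.22. The 2 higher regions of LOC_Os04g47770 began 426 and 2623 bases from its start, the latter past the end of its model of 1787 bases. The gene went the other way in RNA, from 31.8, 30.2 and 31.5 TPM to 23.2, 25.7 and 14.0 TPM. It fell by 0.59 ± 0.20 (adjusted p = 0.0283), a call that ended without any 1 of the normal libraries (adjusted p = 0.0602 to 0.073), in a fit of the 6 libraries compared (0.0535) and without the expression filter (0.0569). Without severe replicate 3 it fell by 0.34. The region assigned to LOC_Os05g30120 lay downstream of the gene, 3265 bases from the start of a model of 546 bases. The gene was listed at 0 TPM in all 9 libraries.

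The 6 largest RNA falls all belonged to genes whose region lost the mark, as 89.5% of listed regions did. LOC_Os03g14915 (chromosome 3, 8132034 to 8132533, at its start, change of −1.5) had 70.8, 62.8 and 70.9 TPM in the normal libraries and 1.77, 3.28 and 3.64 TPM in the severe ones. It fell by 4.18 ± 0.21. LOC_Os07g37230 (chromosome 7, 22311158 to 22311657, change of −1.55) had 167, 162 and 174 TPM against 16.1, 21.7 and 7.14 TPM, and it fell by 3.52 ± 0.41.

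LOC_Os12g05890 (chromosome 12, 2709713 to 2710212, upstream of the start, change of −1.60) had 42.5, 41.9 and 35.4 TPM against 4.67, 5.75 and 1.69 TPM, and it fell by 3.12 ± 0.29. LOC_Os01g44050 (chromosome 1, 25235648 to 25236147, change of −1.03) had 31.7, 32.7 and 79.2 TPM against 7.28, 5.61 and 7.78 TPM, and it fell by 2.51 ± 0.31. LOC_Os04g09540 (chromosome 4, 5124015 to 5124514, change of −1.02) had 23.9, 13.2 and 17.2 TPM against 2.08, 1.63 and 3.99 TPM, and it fell by 2.44 ± 0.27. Normal replicate 3 of LOC_Os01g44050 lay well above the other normal libraries. LOC_Os02g52280 (chromosome 2, 32010693 to 32011192, change of −2.31) had 8.16, 6.0 and 9.66 TPM against 0.737, 0.751 and 0.458 TPM, and it fell by 2.42 ± 0.17. These genes were chosen by their RNA values, so their values are examples and not a sample of the region genes.

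**Figure D4:**
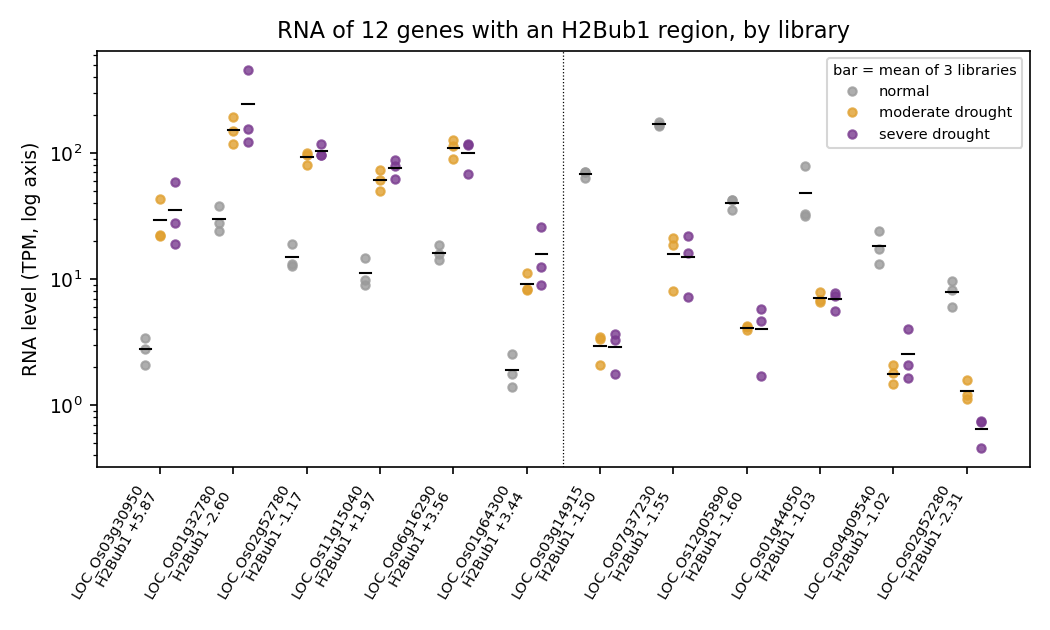
RNA level in TPM (y axis, log scale) in each of the 9 libraries for the 6 region genes with the largest RNA rises (left) and falls (right) in severe drought; dots are libraries, bars are means of 3, and the number under each gene is its H2Bub1 change. Normal libraries are grey and severe ones purple; the 12 genes were chosen for groups that do not overlap, and the right side holds losses of the mark only.

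Of 113 genes in 16 lists on drought, ABA and other functions, 4 had a listed region, and 13 lists had none, among them drought effectors, stress NAC and DREB factors, antenna and Rubisco genes and the circadian clock. The 4 were 3.88% of the 103 tested list genes, a share near the 4.02% of all tested genes that had a region. In the ABA lists it was 3 of 36 tested genes (8.33%). The files pair no names with the locus IDs. Names given here were assigned to loci from general knowledge, and RefSeq lists a gene of the same name on the same chromosome for 70 of the 113, including all 6 named below. All 4 regions were lower in drought, as 89.5% of listed regions were. In RNA, 19 of 36 tested genes in the ABA lists rose (52.8%, against 42.1% of all tested genes) and 10 fell (27.8%, against 20.6%).

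HUB2 (LOC_Os10g41590), which encodes one of the ligases that set the mark, itself had a lower region. At chromosome 10, 22390681 to 22391180, 1982 bases into the gene, H2Bub1 went from 8.06 to 7.01 (authors' FDR of 4.51e-05). HUB2 RNA was at 55.0, 53.6 and 58.4 TPM under normal water and at 38.1, 39.1 and 42.8 TPM in severe drought, and it fell by 0.47 ± 0.08 (adjusted p = 0.00126). Every severe library lay below every normal one. HUB1 (LOC_Os04g46450), its partner, had no listed region, and its RNA was at 45.8, 47.7 and 55.3 TPM against 43.1, 41.2 and 45.5 TPM, a difference of −0.19 ± 0.10 (adjusted p = 0.134). HUB1 passed as lower under both other scalings, with an adjusted p of 0.00228 for quantile normalization and of 0.00287 for median-of-ratios scaling. MODD (LOC_Os03g11550), which in rice acts on OsbZIP46, had no listed region either, and its RNA rose by 1.28 ± 0.32, from 5.26, 6.46 and 5.53 TPM to 12.8, 9.59 and 29.1 TPM. Without severe replicate 3 that rise was 0.85.

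Of the 9 listed genes for PP2C phosphatases, which hold ABA signalling in check, 2 had a region, and in both the mark was lower and the RNA higher. PP2C06 (LOC_Os01g40094) had a region at chromosome 1, 22619358 to 22619857, that went from 8.29 to 7.17 (FDR of 7.43e-06). Its RNA rose by 1.78 ± 0.14, from 68.0, 76.4 and 91.4 TPM to 257, 242 and 316 TPM. PP2C08 (LOC_Os01g46760) had one at 26655648 to 26656147 on the same chromosome that went from 7.11 to 5.52 (FDR of 1.05e-05). Its RNA was at 44.5, 43.8 and 42.6 TPM against 60.5, 56.8 and 59.2 TPM, and it rose by 0.42 ± 0.08. Both other scalings ended that call, with a difference of 0.18 (adjusted p = 0.122) for quantile normalization and of 0.21 (adjusted p = 0.0805) for median-of-ratios scaling. The other 7 phosphatase genes of the list had no listed region, and 8 of the 9 rose in RNA, where 42.1% of all tested genes did.

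bZIP23 (LOC_Os02g52780), a transcription factor gene of ABA responses, also lost the mark while its RNA rose. Its region at chromosome 2, 32280132 to 32280631, 1022 bases into the gene, went from 6.51 to 5.34 (FDR of 0.0173). Its RNA was at 12.8, 13.2 and 18.9 TPM under normal water and at 96.4, 95.5 and 118 TPM in severe drought, and it rose by 2.72 ± 0.16.

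Moderate drought is the nearest comparison of the series, and its table uses the same normal libraries, so both sets of values are given side by side and their likeness is not a result. Of the severe regions, 263 overlapped a moderate region by at least 1 base, which is 29.7% of the severe and 18.9% of the moderate table. Among them 245 were lower in both droughts, 15 were higher in both, 3 were lower in severe and higher in moderate drought, and 0 were higher in severe and lower in moderate drought. Lower regions were shared in 31.3% of cases and higher regions in 16.1%. In the 245 regions lower in both, the median change was −1.32 in severe and −1.41 in moderate drought, and the loss was deeper in severe drought in 95 and shallower in 144. A region missing from the moderate table failed at least one of its limits there, or was not called, and is not shown to be without change.

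No listed pair of overlapping regions stood at the lowest value in both droughts. Of the 9 regions at the lowest severe value, 3 overlapped a moderate region, with moderate levels of 3.76 to 5.22. One of them was LOC_Os09g26570, at 6.50 under normal water, −0.31 in severe and 5.04 in moderate drought. Conversely 4 regions stood at the lowest moderate value of −0.20, with severe levels of 3.61 to 5.78. At LOC_Os03g14915 the level was 7.28 under normal water, 5.78 in severe and −0.20 in moderate drought, while its RNA fell by 4.18 in severe and fell by 4.14 in moderate drought. Regions of the tables are placed separately, so overlapping regions need not hold the same reads. The normal levels of overlapping regions differed by a median of 0.03 and by at most 2.48. At LOC_Os03g10620, 1 of the highest changes, the normal level was −0.06 in the severe and 2.42 in the moderate table. The changes there were 6.16 and 3.58.

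The 3 regions with opposite directions were named after their values were seen. At bZIP23 the normal level was 6.51 in the severe and 6.41 in the moderate table, and the drought levels were 5.34 in severe and 7.90 in moderate drought. At LOC_Os01g32780 the drought levels were 3.78 and 7.55, from normal levels of 6.38 and 6.34. At LOC_Os02g45690 (chromosome 2, 27800827 to 27801326) they were 2.64 and 6.77, from normal levels of 6.02 and 5.75. In RNA all 3 genes rose in both droughts, where 42.1% of all tested genes rose in severe and 39.4% in moderate drought. bZIP23 rose by 2.72 in severe and 2.56 in moderate drought, LOC_Os01g32780 by 2.77 and 2.32, and LOC_Os02g45690, whose model overlaps another on the opposite strand, by 0.96 and 0.82. The difference of the mark between both droughts was not tested, because the tables hold no values of single libraries.

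The RNA of the genes with severe drought regions was also counted in moderate drought. Of the 82 genes with a higher region 42 rose (51.2%, against 39.4% of all tested genes) and 11 fell (13.4%, against 18.9%). Of the 748 with a lower region 234 rose (31.3%) and 193 fell (25.8%). Both RNA contrasts share the normal libraries.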

How the data were processed

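H2Bub1 was read from chromatin immunoprecipitation followed by sequencing. Per the file headers, the authors deposited for each region a log2 concentration per condition with the log2 fold change, p-value and FDR, which combine the libraries of a condition. Per the submitters' processing notes, Bowtie2 2.3.4 and MACS2 2.1.1 were among the tools, with no role stated. For the FDR, the test was not given in the sources used here. Here the change of a region was the severe minus the normal log2 concentration, which equalled the deposited fold change within 0.01. Genes, distances and classes are the authors'. The osbzip46 table holds the authors' log2 fold changes and p-values.

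Per the file headers, the authors' RNA tables give TPM, FPKM and coverage (signal) per gene; the submitters' processing notes also list HISAT2 2.0.5 and DESeq2 1.20.0, with no role stated. Rows of 1 gene were summed. The 20642 genes that reached 1 TPM in 3 or more libraries were fitted on the log2(TPM + 1) scale, where changes of low genes come out too small, with limma 3.58.1 in R 4.3.3 (trend and robust, two-sided, Benjamini-Hochberg adjusted p under 0.05). The fit was tested on simulated data. Aligned bases are the largest ratio of coverage to FPKM, and ChIP depth is unknown.

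Members, gene lists and tests were chosen with earlier results of these data known. Named were the 6 lowest and 6 highest changes, the 3 highest starting levels, the 6 largest RNA rises and falls (no overlap, at least 5 TPM), list genes with a region, genes with 3 regions, the last 2 by FDR, and HUB1, HUB2 and MODD. A rule for the longest regions was void, as all are 500 bases. Same-numbered normal and severe libraries correlated in their deviations from group means at 0.124, −0.02 and 0.143, so numbers were not taken as pairs.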

Additional observations from a re-analysis of the deposited data

How the results depend on the processing

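A stricter FDR of 0.01 left 95.7% of regions lower, with 25 higher ones. Of regions at or above the median starting level of 6.88, 100% were lower, 444 regions against 0 higher. The starting level is a term of the change, and no higher region began above 6.05. This split is therefore not a separate check. A limit of at least 1 on the change removed no region, and 1 region per gene or a reciprocal overlap of 50% moved no count by over 1.5 times. Quantile normalization and median-of-ratios scaling lowered the number of risen genes among those with a lower region to 131 and 144 in severe drought and to 145 and 153 in moderate drought. Both centre all genes near 0, and the share of all tested genes that rose became 28.6% and 30.8% in severe and 27.6% and 28.5% in moderate drought. Keeping only regions within 1 kb of the start left 199 tested genes with a lower region. Of these 67 rose (33.7%) and 57 fell (28.6%) in severe drought, and 69 (34.7%) and 52 (26.1%) in moderate drought. Of 62 genes with a higher region, 42 rose (67.7%) and 7 fell (11.3%) in severe drought, and 36 (58.1%) and 7 (11.3%) in moderate drought. Of all tested genes 42.1% rose and 20.6% fell in severe drought, and 39.4% and 18.9% in moderate drought. Among all 82 genes with a higher region, 11 fell in moderate drought, and leaving out 1 library gave 7 to 10. The count was 7 without normal replicate 2 or 3, or moderate replicate 2. With the replicate block, 223 genes with a lower region rose and 209 fell, and 46 and 10 of those with a higher region, against 41.3% and 20.1% of all tested genes. It changed no severe drought call among the 21 genes whose values were followed under each setting. Each setting was a fit of all genes together, and many of the 21 were picked for large RNA changes. The pseudocount of 0.1 left every count within 1.5 times. H2Bub1 values carry no library spread, which limits every statement on single regions.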

Other observations

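The authors' deposited table of osbzip46 mutant against wild type plants under drought lists 1265 genes, all with lower H2Bub1 in the mutant. Its 1287 rows all have a negative log2 fold change and an authors' p-value of at most 0.0499, from a test not given. The shared direction may therefore come from how the list was cut and is not a result on the mutant. OsbZIP46 is a bZIP transcription factor of the ABA pathway, and the table marks 217 of these genes (17.2%) as its targets. Of the 869 genes with a severe drought region, 39 are in that table, which is 4.49% of them and 3.08% of the mutant table's genes. The mutant table holds 2.26% of all genes in the RNA tables. Among genes with tested RNA it holds 38 of the 829 with a region (4.58%) and 6.0% of all, so whether the share lies above or below the background depends on which genes are counted. They comprise 37 genes with a lower region (4.74% of 780) and 3 with a higher region (3.33% of 90), 1 gene having both. Of the 39, 9 (23.1%) are marked as OsbZIP46 targets in the authors' deposited table.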
